A study of Homo sapiens with 32 samples.

Results

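Chromosomes 10 and 12 are human autosomes of nearly equal size, with 133.3 and 133.1 Mb of known sequence in the GRCh38 build, on which uracil-rich DNA lay differently after 2 inhibitors of thymidylate synthesis. They were selected on their covered share, the percentage of known bases that lie in uracil-enriched regions. On chromosome 10 this share was higher in the libraries of cells treated with 5-fluoro-2′-deoxyuridine (5FdUR) than in those of cells treated with raltitrexed (RTX), and on chromosome 12 it was lower. Since that contrast chose both chromosomes, each value of 5FdUR against RTX below is a description and carries no test. The 15 replicate libraries held 185231 regions on these chromosomes, 87194 of them on chromosome 10.

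Fragmented genomic DNA had been pulled down with a catalytically inactive uracil-DNA glycosylase (FLAG-ΔUNG) and sequenced beside its input, a method termed U-DNA-Seq. The colon carcinoma line HCT116 lacks mismatch repair (MMR), and a derivative that carries an added chromosome 3 is MMR proficient. Non-treated libraries came from wild type HCT116 (WT), from HCT116 that expresses the uracil-DNA glycosylase inhibitor UGI (NT_UGI) and from the MMR-proficient line with UGI (NT_UGI_MMR). Drug-treated cells of both lines all expressed UGI and received 20 µM 5FdUR (5FdUR_UGI, 5FdUR_UGI_MMR) or 100 nM RTX (RTX_UGI, RTX_UGI_MMR) for 48 h. Each of these 7 conditions had 2 replicate libraries, and the leukaemia line K562, wild type and non-treated, had 1. The paper describes UGI expression from a retroviral vector in sorted populations of cells, and also by transient transfection. The sample titles do not say which was used for each library. The MMR-proficient line differs from its parent by a whole chromosome, and the 6 non-treated libraries pool cells with and without UGI.

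Thymidylate synthase makes dTMP from dUMP. When it is blocked, dUTP builds up and replicative polymerases place uracil opposite adenine. 5FdUR is a nucleoside analog whose monophosphate binds the enzyme and whose fluorinated base can itself enter DNA, whereas RTX is an antifolate that occupies the folate site. UNG, the enzyme that UGI blocks, removes most of this uracil, so cells with UGI keep it in place for the pull-down.

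As 1 example from the 5FdUR side of the contrast, 300 bases are given from the middle of the region of ANTXRL on chromosome 10. It is the longest region of the merged 5FdUR_UGI file within a run of 5 adjacent 1 Mb bins in which every 5FdUR library covered more than every RTX library. Another run of the chromosome has the same length, and this one was taken for its larger mean difference. Capitals mark CG dinucleotides.

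chromosome 10, higher after 5FdUR, chr10:46296901-46297200: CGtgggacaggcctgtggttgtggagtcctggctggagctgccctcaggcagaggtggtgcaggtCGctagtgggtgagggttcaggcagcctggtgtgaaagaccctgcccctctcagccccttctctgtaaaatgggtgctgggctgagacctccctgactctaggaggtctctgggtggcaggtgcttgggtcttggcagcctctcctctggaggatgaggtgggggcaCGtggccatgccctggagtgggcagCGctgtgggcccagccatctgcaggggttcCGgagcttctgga

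The stretch lies in an intron of ANTXRL, in a region of 74100 bp with 49.8% GC, and has 64.3% GC itself with 5 CG dinucleotides. It does not stand for the 5FdUR side as a whole. The 1 Mb bins of chromosome 10 in which every 5FdUR library was higher had a median of 42.8% GC.

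On chromosome 10 the covered share was 21.3% and 21.3% in the 5FdUR_UGI libraries and 22.8% and 22.04% in the 5FdUR_UGI_MMR libraries. It was 18.1% and 19.9% in the RTX_UGI libraries and 19.6% and 19.2% in the RTX_UGI_MMR libraries. The 5FdUR mean of 21.9% ± 0.717 (SD, n = 4) stood 2.68 percentage points above the RTX mean of 19.2% ± 0.784 (SD, n = 4), and the libraries did not overlap. On chromosome 12 the share was 16.97% and 15.6% in 5FdUR_UGI, 18.1% and 19.9% in 5FdUR_UGI_MMR, 21.5% and 23.5% in RTX_UGI, and 20.1% and 20.3% in RTX_UGI_MMR. The 5FdUR mean of 17.6% ± 1.81 stood 3.71 points below the RTX mean of 21.3% ± 1.53, again without overlap, though the highest 5FdUR library (19.9%) and the lowest RTX library (20.1%) nearly met.

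**Figure D1:**
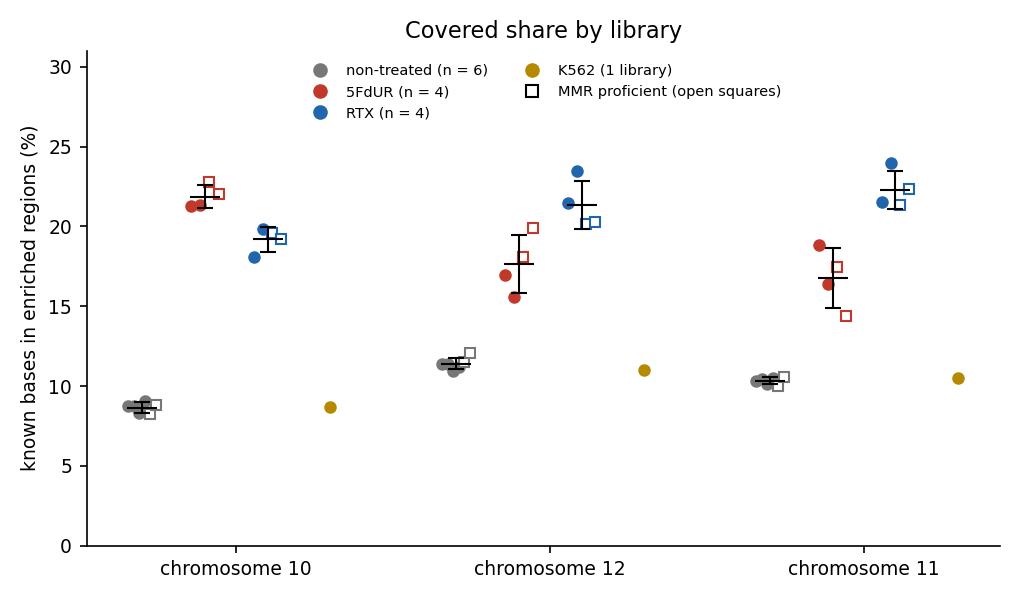
Percentage of known bases inside enriched regions (vertical axis) on chromosomes 10, 12 and 11. Each point is 1 library, open squares are MMR-proficient lines, and bars are the mean with SD. On chromosome 10 every 5FdUR library lies above every RTX library (18.1% to 19.9%), on chromosomes 12 and 11 the order is turned, and the non-treated libraries lie below the drug-treated ones on all 3.

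The cells' MMR state went with the size of the contrast on chromosome 12 more than on chromosome 10. The 5FdUR minus RTX difference was 2.34 points in the MMR-deficient and 3.02 points in the MMR-proficient line on chromosome 10. On chromosome 12 it was -6.19 points in the MMR-deficient and -1.22 points in the MMR-proficient line, since 5FdUR_UGI_MMR covered 2.71 points more than 5FdUR_UGI while RTX_UGI_MMR covered 2.26 points less than RTX_UGI. With 2 libraries a condition these differences were not tested.

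How strong a region had to be to be listed moved with the direction on chromosome 10. The deposited files use a separate log2 minimum for each library, and their lowest region values were 0.25 and 0.14 in 5FdUR_UGI, 0.2 and 0.13 in 5FdUR_UGI_MMR, and 0.25 to 0.27 in the 4 RTX libraries. When only regions of at least 0.27 were kept in all 8 libraries, the share of chromosome 10 was 20.8% and 12.5% in 5FdUR_UGI, 17.6% and 6.06% in 5FdUR_UGI_MMR, and 17.5% to 19.6% in the RTX libraries. The 5FdUR minus RTX difference on chromosome 10 then turned to -4.52 points, and that on chromosome 12 became -10.8 points. With regions of at least 5 kb alone it was 0.262 points on chromosome 10 and -6.06 points on chromosome 12. With the regions of highest log2 value up to 300 Mb in each library, which gives the libraries nearly equal totals, it was 3.05 and -2.72 points. With the shared minimum of 0.27 the genome-wide share was 16.9%, 9.44%, 12.6% and 3.65% in the 5FdUR libraries. It was 16.7% to 18.5% in the RTX libraries. Within each library the order of the chromosomes was kept, with chromosome 10 above chromosome 12 in each 5FdUR library and below it in each RTX library. The higher 5FdUR share of chromosome 10 held where libraries were matched on covered length and not where they were matched on log2 value.

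Among the 23 chromosomes without Y, chromosome 10 ranked 9 and chromosome 12 ranked 15 from the highest to the lowest 5FdUR minus RTX difference. The neighbours of chromosome 10 in this order were X (3.58 points) and 7 (0.725 points), and those of chromosome 12 were 3 (-2.34 points) and 14 (-4.77 points). The 5FdUR libraries all lay above the RTX libraries on 7 chromosomes and all below them on 5, with overlap on 11. GC content alone did not order chromosomes 10 and 12. Chromosome 10 has the higher GC content of the pair (41.5% against 40.8%), and no other chromosome on which every 5FdUR library was higher had more than 40.9% GC. Chromosome 11 has the same GC content as chromosome 10 (41.5%) and a similar length, yet its difference was -5.53 points, with every RTX library above every 5FdUR library.

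The pair also differed in protein-coding gene content. Chromosome 10 holds 730 protein-coding genes, or 5.48 per Mb of known bases, chromosome 12 holds 1038 (7.8 per Mb) and chromosome 11 holds 1317 (9.79 per Mb). The 7 chromosomes with every 5FdUR library higher had at most 6.18 genes per Mb, and the 5 with every RTX library higher had at least 6.8 per Mb. Across the 23 chromosomes the difference correlated with gene density at a Spearman rho of -0.88 (Pearson r = -0.777) and with GC content at -0.812 (Pearson r = -0.79). These are descriptions over chromosomes that share the same libraries, and gene density and GC content themselves go together.

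**Figure D2:**
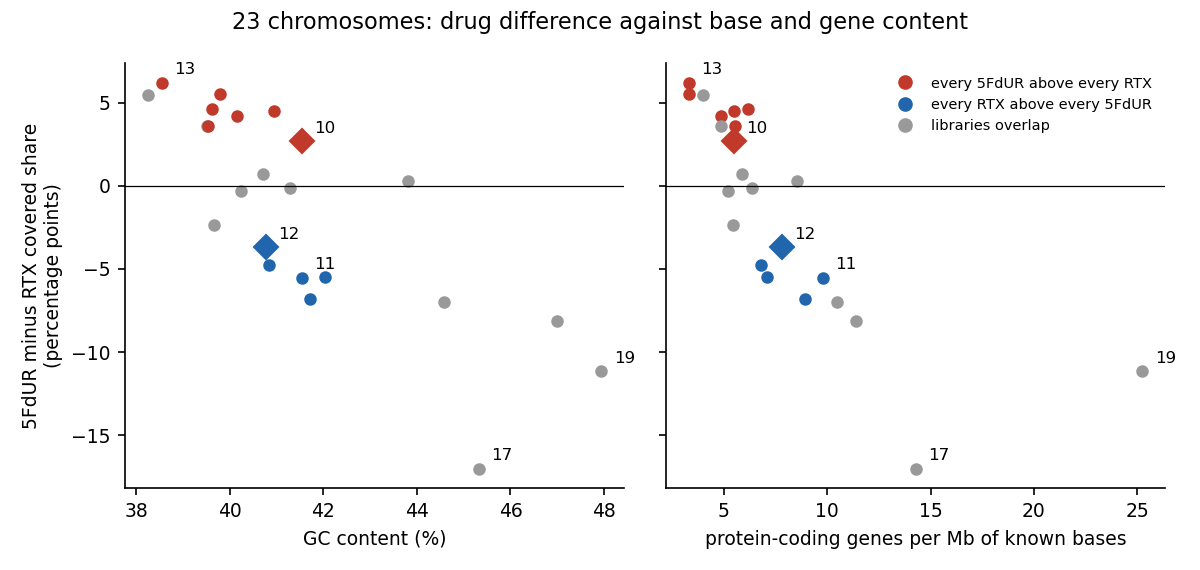
5FdUR minus RTX covered share in percentage points (vertical axis) of 23 chromosomes against their GC content (left) and their protein-coding genes per Mb (right), with chromosomes 10 and 12 as diamonds. Colour shows whether the libraries of the 2 drugs overlap. Chromosome 10, at 41.5% GC, lies above chromosome 11 of the same GC content, and on the right chromosome 10 (5.48 genes per Mb) lies among the gene-poor chromosomes.

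The net difference of each chromosome was small beside the shifts within it. Of the 134 bins of 1 Mb on chromosome 10, 40 (29.9%) had every 5FdUR library above every RTX library and 22 (16.4%) had the reverse. Genome-wide, 22.8% and 17.4% of 2948 bins did so. On chromosome 12, 25 of 133 bins (18.8%) had every 5FdUR library higher and 33 (24.8%) had every RTX library higher. On chromosome 10 the bins higher after 5FdUR added 7.81 points to the chromosome's difference, the bins higher after RTX contributed -6.85 points, and the 72 others added 1.72. On chromosome 12 these parts were 3.82, -9.65 and 2.1 points. With the shared log2 minimum of 0.27, 23 bins of chromosome 10 (17.2%) had every 5FdUR library higher and 22 (16.4%) every RTX library, and on chromosome 12 these were 8 (6.02%) and 35 (26.3%). Both chromosomes held both kinds of bins in the deposited files, and the 5FdUR excess of bins on chromosome 10 was absent at the shared minimum. At that minimum the 5FdUR libraries covered 3.65% to 16.9% of the genome and the RTX libraries 16.7% to 18.5%.

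The bins higher after RTX were gene-rich and those higher after 5FdUR were not, at similar GC content on chromosome 10. Their median GC content on chromosome 10 was 43.0% for RTX and 42.8% for 5FdUR, while the mean number of protein-coding gene starts was 11.1 per bin for RTX and 4.97 for 5FdUR, against 3.97 in the bins with overlap. On chromosome 12 the bins higher after RTX had a median of 43.1% GC and a mean of 15.8 gene starts, and those higher after 5FdUR had 39.9% GC and 5.56 gene starts. The same contrast was seen elsewhere, so it is not particular to this pair. Over all bins of the genome the means were 13.7 (RTX) and 5.61 (5FdUR) gene starts. On chromosome 11 they were 13.9 and 8.26, at a median of 42.8% and 43.4% GC. Over the 134 bins of chromosome 10 the difference correlated with GC content at a Spearman rho of 0.0861 (Pearson r = -0.061) and with gene starts at -0.155 (Pearson r = -0.446). Over the 133 bins of chromosome 12 these were -0.313 (Pearson r = -0.344) and -0.422 (Pearson r = -0.579). Over 2498 bins of the other autosomes they were -0.182 (Pearson r = -0.3) and -0.319 (Pearson r = -0.49). Neighbouring bins share blocks of regions, so these are descriptions across bins.

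Split by GC content, the mean of chromosome 10 stood on the 5FdUR side of that of other autosomes in each class from 38% GC upward. Between 38 and 40% GC the gap was small, with a mean difference of 3.15 points on chromosome 10 and 2.91 on other autosomes. In bins of 42 to 45% GC the mean 5FdUR minus RTX difference was 8.43 points on chromosome 10 (32 bins), -9.09 on chromosome 12 (25 bins), -10.1 on chromosome 11 (24 bins) and -3.81 on other autosomes (422 bins). In bins of 45% GC and over it was -7.88 on chromosome 10 (25 bins) and -21.2 on chromosome 12 (22 bins), against -14.4 on other autosomes (437 bins). These most GC-rich bins held a mean of 9.6 gene starts on chromosome 10 and 18.3 on chromosome 12. The mean and the median disagreed in sign in the most GC-rich bins of chromosome 10, where the median difference was 3.39 points, and between 40 and 42% GC on chromosome 12, where the mean was -2.03 and the median 3.74 points. They also disagreed between 38 and 40% GC on chromosome 12 (mean -0.401, median 2.09), between 40 and 42% on chromosome 11 (mean -3.78, median 1.33) and between 42 and 45% on other autosomes (mean -3.81, median 0.387). In bins under 38% GC the mean difference was positive on all of them, from 2.35 points on chromosome 11 to 5.63 on chromosome 12.

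In the bins higher after RTX the 4 RTX libraries lay closer together than the 4 5FdUR libraries, clearly on chromosome 10 and less so on chromosome 12. In the 22 such bins of chromosome 10 the mean share was 33.9%, 17.1%, 9.96% and 4.93% in the 5FdUR libraries (5FdUR_UGI 1 and 2, then 5FdUR_UGI_MMR 1 and 2), and 52.9% to 61.7% in the RTX libraries. In the 33 such bins of chromosome 12 it was 28.2%, 12.5%, 10.4% and 6.92% in the 5FdUR libraries. There it was 56.7% and 61.0% in RTX_UGI, and lower, at 45.2% and 50.5%, in RTX_UGI_MMR. 5FdUR_UGI replicate 1 was the 5FdUR library nearest to RTX in all 22 of these bins on chromosome 10 and in 29 of 33 on chromosome 12. Non-treated libraries covered 3.33% to 4.36% of these bins on chromosome 10 and 4.1% to 4.97% on chromosome 12.

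In the bins higher after 5FdUR the order of the 5FdUR libraries was turned. Their mean share in the 40 bins of chromosome 10 was 21.5%, 30.8%, 38.4% and 38.9% in the same library order, against 4.92% to 7.66% in the RTX libraries. In the 25 bins of chromosome 12 it was 12.1%, 21.0%, 30.3% and 35.2%, against 3.02% to 6.26% after RTX. Both MMR-proficient 5FdUR libraries lay above both MMR-deficient ones in 27 of the 40 bins on chromosome 10 and in 16 of the 25 on chromosome 12. The reverse held in 19 of the 22 RTX bins of chromosome 10 and in 20 of the 33 of chromosome 12. These orders were counted only in bins chosen by the contrast of the drugs. Their share over all bins was not counted, so they are not shown to be particular to these bins. The lowest log2 value of the 5FdUR files also differed between these libraries, as given above, and its part in the order was not tested. Without 5FdUR_UGI replicate 1, the bins with every 5FdUR library higher made up 56.0% of chromosome 10 and 46.6% of chromosome 12, and without RTX_UGI_MMR replicate 1 they made up 34.6% of chromosome 12.

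**Figure D3:**
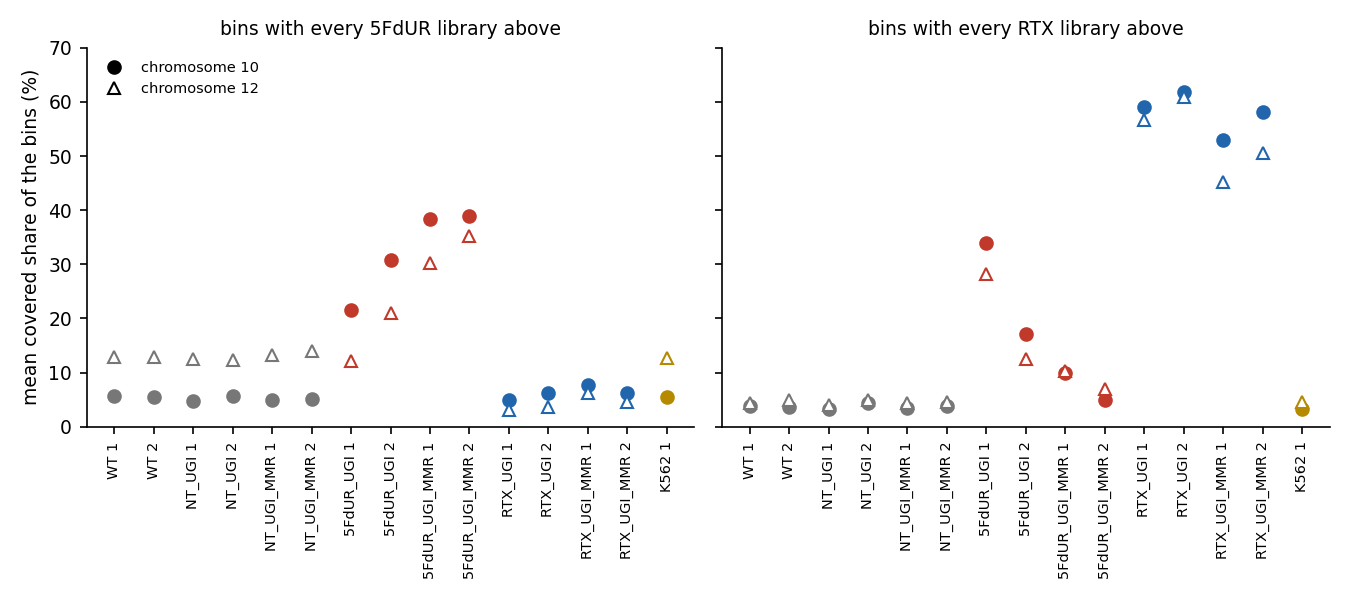
Mean covered share (vertical axis, %) in each library of the bins in which every 5FdUR library (left) or every RTX library (right) was higher, for chromosome 10 (circles) and chromosome 12 (triangles). On the right the 5FdUR libraries fall from 33.9% to 4.93% on chromosome 10 while the RTX libraries stay between 52.9% and 61.7%. The bins were chosen by this contrast.

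Adjacent bins of one direction joined into runs. Chromosome 10 had 18 runs with 5FdUR higher, 8 of them of 3 Mb or more, and 13 with RTX higher, 2 of them of 3 Mb or more. Chromosome 12 had 19 and 14 runs, of which 2 and 4 reached 3 Mb. Runs are named by length and, where lengths tie, by the larger mean difference between the drugs, so further runs of equal length on both chromosomes are not described. One of the 2 longest 5FdUR runs of chromosome 10, chr10:45000001-50000000, held 45 protein-coding genes, with WDFY4, ARHGAP22 and PARG the longest. PARG removes poly(ADP-ribose) from proteins. The run's share was 21.99%, 34.3%, 37.2% and 39.4% in the 5FdUR libraries, 3.01% to 5.54% in the RTX libraries and 2.42% to 3.9% in the non-treated ones. Non-treated and RTX libraries overlapped here, and 5FdUR alone stood above both.

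The 5FdUR run of equal length, chr10:22000001-27000000, held KIAA1217, GPR158 and MYO3A, and covered 19.7% to 27.9% after 5FdUR against 3.4% to 5.73% after RTX. Of the runs of 3 Mb the one with the largest difference, chr10:29000001-32000000, had the 5FdUR values 48.8%, 50.5%, 48.2% and 48.6%, against 7.09% to 13.98% after RTX and 4.67% to 6.34% without drug. It holds SVIL, ZNF438 and ZEB1, the last a repressor of epithelial genes. Here the MMR state and the files' differing log2 minimum went with no visible shift among the 5FdUR libraries.

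The longest RTX run of chromosome 10, chr10:99000001-105000000, held 89 protein-coding genes, with HPSE2, SORCS3 and SH3PXD2A the longest, though SORCS3 itself was at 0 in each RTX library. The run's share was 68.2% and 71.3% in RTX_UGI, 61.1% and 69.3% in RTX_UGI_MMR, and 43.1%, 21.7%, 13.6% and 6.14% in the 5FdUR libraries. Non-treated libraries lay between 2.02% and 2.96%, below all of them. The next run, chr10:72000001-75000000 with ADK and KAT6B, was covered at 50.6% to 61.5% after RTX and at 15.9%, 5.96%, 0.643% and 0.17% after 5FdUR. ADK is adenosine kinase. A shorter run, chr10:86000001-88000000, holds BMPR1A and a part of GRID1. It had 55.3% to 56.4% after RTX, a spread of little more than 1 point, and 8.25% to 34.1% after 5FdUR. GRID1, which extends beyond the run, went the other way over its gene body, with means of 13.5% after 5FdUR and 3.49% after RTX.

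On chromosome 12 the longest 5FdUR runs were chr12:2000001-5000000 with CACNA1C, PRMT8 and TSPAN9, and chr12:23000001-26000000 with SOX5, LMNTD1 and BCAT1, of equal length. The share of the first was 18.6%, 35.4%, 64.7% and 58.3% in the 5FdUR libraries, 6.54% and 7.92% in RTX_UGI, 3.64% and 3.25% in RTX_UGI_MMR, and 1.1% to 2.07% in the non-treated libraries. The MMR-proficient 5FdUR libraries were the highest and the MMR-proficient RTX libraries the lowest of the drug-treated ones. The second is AT-rich (37.7% GC) and differed in kind. It covered 15.2% to 20.8% in non-treated libraries, 7.38%, 13.8%, 22.9% and 31.4% in the 5FdUR libraries and 0.133% to 2.32% in the RTX libraries, so that the 5FdUR libraries lay on both sides of the non-treated ones. A shorter run, chr12:106000001-108000000 with ABTB3, RFX4 and POLR3B, had 28.2% to 45.6% after 5FdUR and 5.98% to 19.1% after RTX.

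The RTX runs of chromosome 12 were long and gene-dense. The run chr12:46000001-52000000, with 97 protein-coding genes (DIP2B, SCN8A and SPATS2 the longest), had 64.2% and 66.7% in RTX_UGI, 49.5% and 57.7% in RTX_UGI_MMR, and 35.3%, 16.8%, 13.2% and 8.72% in the 5FdUR libraries. The run chr12:53000001-58000000 held 167 protein-coding genes, with R3HDM2, ATF7-NPFF and ATF7 the longest, and was covered at 46.7% to 72.6% after RTX and at 35.6%, 10.5%, 8.61% and 4.07% after 5FdUR. The run chr12:119000001-124000000, with RFLNA, CCDC60 and CIT, had 46.0% to 68.6% after RTX and 0.014% to 0.316% without drug.

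Single genes picked for the largest differences showed the contrast almost as on and off, while at most genes of both chromosomes the libraries of the drugs overlapped. Of all protein-coding genes, 7.82% had every 5FdUR library above every RTX library over the gene body and 23.3% the reverse. On chromosome 10 it was 104 genes (14.2%) and 187 (25.6%), and on chromosome 12 it was 68 (6.55%) and 337 (32.5%). The genes of at least 20 kb with the largest 5FdUR excess on chromosome 10 were OGDHL, ANTXRL and CHAT. OGDHL (ENSG00000197444, chr10:49734641-49762379), a relative of the mitochondrial oxoglutarate dehydrogenase, had 85.2%, 100.0%, 100.0% and 100.0% of its bases covered after 5FdUR, 9.35% at most after RTX and 0 in each non-treated library. CHAT, the enzyme that makes acetylcholine, had 77.1% to 98.3% after 5FdUR and 11.9% at most after RTX. The largest RTX excess was at ENTPD7, CHUK and COX15. CHUK, a kinase of the NF-kappaB pathway, had 94.4% to 100.0% after RTX and 5.07% at most after 5FdUR. COX15 (ENSG00000014919, chr10:99710868-99732127), a factor for heme A synthesis, had 83.6% to 100.0% after RTX and 0 in each 5FdUR and non-treated library.

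On chromosome 12 the largest 5FdUR excess was at CCND2, IQSEC3 and PRMT8. CCND2 (ENSG00000118971, chr12:4269771-4305353), which encodes cyclin D2, had 30.5%, 87.7%, 100.0% and 94.7% covered after 5FdUR, 0.56% at most after RTX and 0 without drug. PRMT8, an arginine methyltransferase of neurons, had 66.5% to 92.3% after 5FdUR and 3.76% to 12.8% after RTX. The largest RTX excess was at PCBP2, HCFC2 and RSRC2. PCBP2 (ENSG00000197111, chr12:53452102-53481162), an RNA-binding protein, had 90.03% to 100.0% after RTX and 7.22% at most after 5FdUR.

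Genes of uracil repair, replication and folate metabolism were examined as a list. Of 23 listed genes (10 on chromosome 10, 13 on chromosome 12), 8 had every RTX library higher, 1 had every 5FdUR library higher and 14 overlapped. The median difference was -39.8 points against -8.13 over all protein-coding genes. It was -24.6 points for the listed genes of chromosome 10, against -2.63 over all genes there. For those of chromosome 12 it was -48.2 points, against -25.3 over all genes there. Of all genes, 25.6% on chromosome 10 and 32.5% on chromosome 12 had every RTX library higher, so 8 of 23 is near the background. TDG, a glycosylase that acts on uracil and thymine mispaired with guanine, had 38.5%, 0, 13.8% and 0 in the 5FdUR libraries and 82.2%, 100.0%, 74.0% and 54.1% in the RTX libraries. PRIM1, a primase subunit, had 21.4% at most after 5FdUR and 75.0% to 100.0% after RTX. TIMELESS, a protein of the replication fork, had 62.7% in 5FdUR_UGI replicate 1, 0 in the other 5FdUR libraries and 90.7% to 100.0% after RTX. ABCC2, an efflux transporter that carries antifolates, was at 0 in each 5FdUR library and at 51.3% to 93.7% after RTX. ERCC6, of transcription-coupled repair, went the other way, with 3.86%, 23.4%, 52.9% and 68.9% after 5FdUR and 0.936% at most after RTX.

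Cancer genes fell on both sides. Of 20 listed genes, 4 had every 5FdUR library higher and 7 every RTX library, with a median difference of -3.47 points. The share with RTX higher is near that of the chromosomes (25.6% and 32.5%), and 14.2% and 6.55% of their genes had every 5FdUR library higher. RET, a receptor tyrosine kinase gene, had 57.1%, 92.3%, 94.2% and 33.9% after 5FdUR and 5.62% at most after RTX. FGFR2, a fibroblast growth factor receptor gene, had 5.66% and 29.1% in 5FdUR_UGI and 83.0% and 75.3% in 5FdUR_UGI_MMR and was at 0 in each RTX library. BMPR1A, a bone morphogenetic protein receptor gene, had 4.42% at most after 5FdUR and 89.5% to 99.9% after RTX. CDKN1B, which encodes the cell cycle inhibitor p27, had 75.4% in 5FdUR_UGI replicate 1, 0 in the other 5FdUR libraries and 84.6% to 100.0% after RTX.

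The listed long neuronal and adhesion genes had no member with every RTX library higher. Of 20, 3 had every 5FdUR library higher, namely CACNA1C, KCNMA1 and GRID1, and the median difference was 5.62 points. Among all genes, 14.2% on chromosome 10 and 6.55% on chromosome 12 had every 5FdUR library higher. Every RTX library was higher at 25.6% and 32.5% of them. CACNA1C, a calcium channel gene, had 18.2%, 50.7%, 90.9% and 81.6% after 5FdUR and 2.7% at most after RTX. KCNMA1, a potassium channel gene, had 26.96%, 42.1%, 64.3% and 64.5% after 5FdUR and 2.8% at most after RTX. Of 23 developmental regulators, 2 (VAX1 and HOXC9) had every 5FdUR library higher, none had every RTX library higher and 21 overlapped. EMX2, a homeobox gene, had 0, 100.0%, 93.1% and 100.0% after 5FdUR and 0 in each RTX library. TBX3, a T-box gene, had 0, 42.9%, 100.0% and 69.3% after 5FdUR and 0 in each RTX library.

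The keratin cluster of chromosome 12 lies between RTX runs. Type II keratin genes encode intermediate filaments of epithelia and hair. Of 26, 4 had every 5FdUR library higher, namely KRT74, KRT72, KRT73 and KRT77, and none had every RTX library higher. Among all genes of chromosome 12, 6.55% had every 5FdUR library higher and 32.5% every RTX library. KRT73 had 100.0%, 100.0%, 100.0% and 76.6% after 5FdUR and 0 to 30.6% after RTX. KRT4, in the same cluster, had 7.79%, 0, 100.0% and 44.2% after 5FdUR and 100.0% in each RTX library. Of the 14 taste receptor genes TAS2R7 and TAS2R9 had every RTX library higher, and none of 11 killer cell lectin-like receptor genes, 4 CYP2C genes, 5 IFIT genes and 6 lipase genes had libraries of the 2 drugs apart. Of 3 annexin genes, ANXA11 had every 5FdUR library higher and ANXA7 every RTX library. Over all genes of chromosome 10 these shares were 14.2% and 25.6%.

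Drug-treated against non-treated cells is a contrast that was not used to choose these chromosomes. The covered share of chromosome 10 was 8.22% to 9.09% (mean 8.65% ± 0.326, SD, n = 6) in non-treated and 18.1% to 22.8% (mean 20.5% ± 1.59, SD, n = 8) in drug-treated libraries. The difference of 11.9 points had an adjusted p of 0.000333 in a two-sided exact permutation test over the libraries, with adjustment over both chromosomes, which is the smallest p this design can give. On chromosome 12 the non-treated libraries lay at 10.9% to 12.1% (mean 11.4% ± 0.371, SD, n = 6) and the drug-treated ones at 15.6% to 23.5% (mean 19.5% ± 2.52, SD, n = 8). The difference of 8.07 points had the same adjusted p of 0.000333 in that exact permutation test.

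Drug-treated files cover more of the genome than non-treated ones (17.1% to 18.9% against 10.9% to 11.3%), and the log2 minimum that sets this was chosen by the authors. With shares scaled to equal genome-wide coverage the difference remained on chromosome 10, at 5.68 points (exact permutation p = 0.000333). On chromosome 12 it fell to 1.04 points (exact permutation p = 0.184) and no longer passed the threshold of 0.05.

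Without drug, chromosome 12 was covered more than chromosome 10 in all 6 HCT116 libraries. Chromosome 12 minus chromosome 10 came to 2.65 and 2.63 points in WT, 2.62 and 2.13 in NT_UGI, and 3.28 and 3.25 in NT_UGI_MMR, a mean of 2.76 points. The two-sided exact sign-change permutation test gave p = 0.03125, the smallest that 6 libraries allow. K562 had 8.7% on chromosome 10 and 11% on chromosome 12, within the HCT116 range on each. The RTX libraries kept this order, with chromosome 12 ahead by 0.527 to 3.6 points, and in the 5FdUR libraries chromosome 10 led by 2.16 to 5.73 points. Non-treated coverage was highest in GC-poor bins. The Spearman rho of the non-treated share with GC content was -0.845 on chromosome 10 and -0.929 on chromosome 12, and bins under 38% GC made up 16.4% of chromosome 10 and 32.3% of chromosome 12.

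By bins, the drug-treated libraries all exceeded the non-treated ones in 51 of 134 bins on chromosome 10 (38.1%) and in 44 of 133 on chromosome 12 (33.1%), against 32.9% genome-wide. All of them were below in 24 bins on chromosome 10 (17.9%) and 21 on chromosome 12 (15.8%), against 24.2% genome-wide. The bins that fell were AT-rich (median 36.9% and 36.0% GC) and held a mean of 0.833 and 1.95 gene starts. Their share was 24.96% and 32.4% without drug, 2.89% and 7.34% after 5FdUR, and 0.427% and 1.1% after RTX. Of the 40 bins of chromosome 10 with 5FdUR above RTX, 15 had all drug-treated libraries above the non-treated ones, 1 had them below and 24 overlapped, and of the 22 with RTX above, 10 were higher and 12 overlapped. Of the 25 bins of chromosome 12 with 5FdUR above RTX, 5 were higher, 5 lower and 15 overlapped, and of the 33 with RTX above, 18 were higher and 15 overlapped.

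Over gene bodies, 257 of 730 protein-coding genes on chromosome 10 (35.2%) were called higher in drug-treated libraries and 45 (6.16%) lower, by an exact permutation test whose p-values were adjusted (Benjamini-Hochberg) over all 20033 protein-coding genes, at 0.05. Chromosome 12 had 290 of 1038 (27.9%) higher and 130 (12.5%) lower. Over all protein-coding genes 33.4% were called higher and 8.3% lower, so that chromosome 12 had the smaller share of genes higher and the larger share of genes lower. Of the 12 genes of largest drug contrast named above, ANTXRL, IQSEC3 and PRMT8 were called higher and the other 9 were not called. With any 1 non-treated library left out, genes called higher numbered 165 to 171 on chromosome 10 and 180 to 183 on chromosome 12, where 191 were called without 5FdUR_UGI replicate 1. UNG itself was at 0 in each non-treated library and at 12.3% to 75.1% in drug-treated ones (adjusted p = 0.00791 in the exact permutation test). SMUG1, another uracil glycosylase, was at 0 without drug and at 75.9%, 41.97%, 10.3% and 0 after 5FdUR and 69.8% to 100.0% after RTX (adjusted p = 0.0217, exact permutation test). Of the 23 genes of uracil repair, replication and folate metabolism, 5 were called higher, 1 lower (HELLS) and 17 not called. MCM10, a replication initiation factor, was among the higher ones, with 8.05% to 62.4% after 5FdUR, 90.1% to 100.0% after RTX and 0 without drug.

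Most listed developmental genes and keratins rose, and most long neuronal genes fell. Of 23 developmental regulators 14 were called higher, none lower and 9 not called. Their median drug-treated minus non-treated difference was 51.6 points, against 26.5 over all protein-coding genes. Among all protein-coding genes 33.4% were called higher and 8.3% lower, and on chromosome 12 these shares were 27.9% and 12.5%. PAX2, a paired-box factor, was at 0 in each non-treated library and at 88.8%, 83.95%, 78.3% and 26.5% after 5FdUR and 70.5% to 96.7% after RTX. Of 26 type II keratins 22 were called higher and none lower, with a median of 61.8 points. Neighbouring keratin or HOXC genes can lie in one region and are not separate observations. Of 20 long neuronal and adhesion genes none was called higher, 13 were lower and 7 were not called, with a median of -16.1 points. PCDH15, a protocadherin gene of 1825.2 kb, fell from 47.0% to 51.7% without drug to 2.51% at most with either drug. SOX5, a transcription factor gene, fell from 24.8% to 35.2% to 4.41% at most.

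The other families followed the same lines. Of 14 taste receptor genes 6 were called lower and none higher, and of 11 killer cell lectin-like receptor genes 9 were lower and none higher. All 4 CYP2C genes, which encode drug-metabolising cytochromes, were lower. Among all genes 12.5% on chromosome 12 and 6.16% on chromosome 10 were called lower. Of 5 IFIT genes, which respond to interferon, 3 were higher, as were 2 of 3 annexins and 3 of 6 lipases, with none lower, where 35.2% of all genes on chromosome 10 were called higher. The IFIT and lipase genes are neighbours and, like those of the other clusters, not separate observations. Among the 20 cancer genes 1 was higher (KMT2D, a histone methyltransferase gene) and 1 lower (ARID2, a chromatin remodeller gene). The remaining 18 were not called, and with their drugs apart several of them, such as RET and BMPR1A, had 1 drug near the non-treated level.

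Regions were on average longer after RTX and more numerous after 5FdUR on both chromosomes, with 5FdUR_UGI replicate 1 inside the RTX range of both measures. Chromosome 10 had 4857, 7576, 8966 and 10918 regions in the 5FdUR libraries, 4033 to 5961 in the RTX libraries and 4443 to 5503 in the non-treated ones. The N50 length, defined so that 50% of covered bases lie in regions of that length or longer, was 25000, 9700, 9100 and 6600 bp after 5FdUR and 12400 to 34300 bp after RTX, against 4700 to 4900 bp without drug. The N50 of chromosome 12 was 14800, 6600, 6400 and 5600 bp after 5FdUR, 10400 to 37300 bp after RTX and 5000 to 5300 bp without drug. The longest single region of chromosome 10 was 480100 bp, in RTX_UGI replicate 2, and that of the non-treated libraries 36300 bp. The mean log2 value of the covered bases on chromosome 10 was 0.456, 0.317, 0.341 and 0.234 in the 5FdUR libraries and 0.408 to 0.464 in the RTX libraries. The lowest log2 value of the files was 0.25, 0.14, 0.2 and 0.13 after 5FdUR and 0.25 to 0.27 after RTX. Its part in region number, length and mean log2 value was not tested.

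How far the libraries marked the same bases was measured by the Jaccard index, the shared bases divided by those in either library. On chromosome 10 it was 0.451 between the 5FdUR_UGI replicates and 0.352 between those of 5FdUR_UGI_MMR, 0.622 and 0.542 for the RTX pairs, and 0.356 to 0.371 for the non-treated pairs. The chromosome 12 values were 0.338 and 0.273 for 5FdUR and 0.656 and 0.503 for RTX, so that on both chromosomes the 5FdUR replicates shared less than the RTX replicates did. Pairs of a 5FdUR and an RTX library had a mean of 0.207 on chromosome 10 (16 pairs, 0.0669 to 0.419) and 0.167 on chromosome 12 (0.0378 to 0.383). Pairs of a drug-treated and a non-treated library had means from 0.016 to 0.0301.

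In the merged files of the MMR-deficient line, 16.99 Mb of chromosome 10 were marked after 5FdUR only, 13.5 Mb after both drugs and 11 Mb after RTX only. The shared bases made up 44.3% of the 5FdUR bases and 55.2% of the RTX bases. Chromosome 12 had 10.7 Mb (5FdUR only), 11.03 Mb (both) and 18.6 Mb (RTX only), and the shared bases were 50.9% of the 5FdUR and 37.2% of the RTX bases. In the MMR-proficient line the shared bases were fewer, at 6.17 Mb or 19.6% of the 5FdUR bases on chromosome 10, and at 3.55 Mb or 13.8% on chromosome 12. Bases marked after 5FdUR only were richer in GC than those marked after RTX only in the MMR-deficient line, at 46.1% against 42.2% on chromosome 10 and 45.3% against 42.8% on chromosome 12. In the MMR-proficient line this was 45.04% against 42.8% on chromosome 10 and 43.3% against 43.4% on chromosome 12. Each merged file also has its own log2 minimum, lower for 5FdUR than for RTX, and its part in these overlaps was not tested.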

How the data were processed

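U-DNA-Seq regions of 15 replicate libraries and 7 merged files were analysed. Per the labels and the study's methods, the authors aligned reads to GRCh38 with BWA (0.7.17-r1194), used SAMtools (1.9-50) and Picard, filtered ambiguous reads, smoothed coverage with deepTools (3.2.1), and took regions whose log2 ratio, enriched over input, passed a minimum set for each library. The deposited log2 value is the mean over a region, and the region files hold no read counts, so the depth behind a region is unknown from them. The deposited positions lie on a 100 bp grid. Genes are GENCODE 44, sequence is hg38. Covered shares were counted in 100 bp cells over known bases, in 1 Mb bins with at least 50% known bases, and over gene bodies (Python 3.11.15, NumPy 2.4.6). Exact permutation tests, checked on simulated data, compared 8 drug-treated with 6 non-treated libraries. The p-values measure the spread between these libraries. The chromosomes, gene lists and alternatives were chosen with earlier results of these data known. Loci named are the 3 longest runs per chromosome and direction (ties by larger mean difference), and genes are the 3 with the largest difference and members of the lists. List members given with values were picked after those were seen. Sequencing used more than 1 instrument, and which library ran on which is not given in the sources used here. K562 entered no test, and the 17 input and mock samples of 32 have no region file used here. Some genes and sequences are not reported here.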

Additional observations from a re-analysis of the deposited data

Results flagged for a closer look

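In 26 of 144 groups of 4 to 6 libraries, 1 library's covered share stood apart from the others by Dixon's criterion. RTX_UGI_MMR replicate 1 was that library in 9 cases and 5FdUR_UGI replicate 1 in 8. No whole-chromosome share and no run of bins was among them, only genes. Where the other libraries of a group are all equal, any single differing value meets the criterion. Groups without any spread never can, and the genes were chosen by their values or from lists. The count is therefore not set against a chance rate.

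Among the RTX libraries, RTX_UGI_MMR replicate 1 was lowest at ENTPD7 (94.0%), HCFC2 (82.0%), SMUG1 (69.8%), KMT2D (64.2%) and CDKN1B (84.6%). It was highest at CHAT (11.9%), CCND2 (0.56%), ERCC6 (0.936%) and RET (5.62%). RTX_UGI replicate 2 was highest at OGDHL (9.35%), IQSEC3 (39.5%) and KCNMA1 (2.8%), and RTX_UGI replicate 1 at PCDH15 (0.186%). Among the 5FdUR libraries, 5FdUR_UGI replicate 1 was lowest at OGDHL (85.2%) and EMX2 (0) and highest at ENTPD7 (6.18%), PCBP2 (7.22%), HCFC2 (8.55%), PRIM1 (21.4%), TIMELESS (62.7%) and CDKN1B (75.4%). 5FdUR_UGI_MMR replicate 2 was lowest at PAX2 (26.5%) and KRT73 (76.6%). Among the non-treated libraries NT_UGI_MMR replicate 2 was highest at RSRC2 (5.09%), WT replicate 1 at PRIM1 (1.36%) and WT replicate 2 at ERCC6 (12.6%).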

How the results depend on the processing

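Of 211 values under other settings, 167 were counted as unchanged. For differences of covered share this meant the same direction and side of the threshold, or a move smaller than the replicate spread. For percentages of bins and counts of genes it meant a value within a set factor of the main one. The 5FdUR minus RTX difference on chromosome 10 turned to -4.52 points with a shared log2 minimum of 0.27, was 0.262 with regions of at least 5 kb and 4.5 in the merged files. On chromosome 12 it was -10.8, -6.06 (at least 5 kb), -6.19 (MMR deficient) and -1.22 (MMR proficient). Leaving out 1 library each gave 2.31 to 2.91 and -4.45 to -3 points. Drug-treated minus non-treated on chromosome 12 lost its call with a shared minimum of 0.33 (1.91 points, exact permutation p = 0.542), with 300 Mb a library (0.496, p = 0.583) and with scaling (1.04, p = 0.184). Leaving out 1 library each gave 11.6 to 12.2 points on chromosome 10 and 7.51 to 8.63 on chromosome 12. Chromosome 12 minus chromosome 10 without drug gave 2.66 to 2.89 points when 1 library was left out, where 5 libraries allow no p under 0.0625 in the exact permutation test. The share of chromosome 10 bins with 5FdUR higher was 18.4% in bins of 100 kb, 59.3% in bins of 5 Mb and 17.2% with the shared minimum, and 29.9% to 56.0% with 1 library left out, which eases the criterion. With RTX higher it was 16.4% to 22.4%. On chromosome 12 it was 6.02% with the shared minimum and 18.8% to 46.6% (5FdUR higher), and 24.8% to 29.3% (RTX higher), the top of each range without 5FdUR_UGI replicate 1. Without RTX_UGI_MMR replicate 1 the 5FdUR value was 34.6%. Genes called higher and lower were 21 and 1 on chromosome 10 and 15 and 21 on chromosome 12 within 2 kb of the transcription start, and 80 and 26, and 65 and 78, with regions of at least 5 kb. Leaving out 1 library each gave 165 to 300 higher and 38 to 52 lower on chromosome 10, and 180 to 426 and 113 to 137 on chromosome 12, with the most without 5FdUR_UGI_MMR replicate 2 and 165 to 171 and 180 to 183 higher without any 1 non-treated library. The cause of these shifts was not tested.

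Deviations of same-numbered replicates correlated at -0.58 to 0.484 over 21 pairs of conditions, with 4 above 0.1. Each condition has few replicates, so these values cannot decide whether the replicate numbers pair samples across conditions. With the replicate number as a block, the drug-treated minus non-treated differences stayed at 11.9 and 8.07 points (exact permutation p = 0.000816 for each). The replicate block gave 223 genes higher and 44 lower on chromosome 10 and 234 and 122 on chromosome 12, bins at 32.1% and 17.2% on chromosome 10 and 19.6% and 25.6% on chromosome 12, and chromosome 12 minus chromosome 10 means of 2.85 and 2.67 points, and it changed no other call. The region files hold no read counts, so no interval is given for a single region.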
